A study of Mus musculus with 13 samples.

Results

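The genes described here are 8 transcription factors tied to the identity of microglia, the resident macrophages of the brain and spinal cord: Sall1, Sall3, Mef2a, Mef2c, Bhlhe41, Klf7, Sox4 and Spi1. They were taken by name from the 22598 features of the deposited matrix, and all 8 were found. Single cells were sorted from the spinal cord of mice and their RNA was counted as unique molecular identifiers (UMIs), which stand for single captured molecules. All mice carried Cx3cr1YFPCreERT2:R26tdTomato, in which an inducible Cre recombinase made from the Cx3cr1 locus switches on a lasting red mark. Cx3cr1 is active in microglia, in macrophages at the borders of the nervous system and in blood monocytes, so the mark separates resident from newly arrived cells only because blood cells are replaced over time. Resident cells came from healthy controls (3 libraries) and from mice at the peak (2 libraries) or in the chronic phase (3 libraries) of experimental autoimmune encephalomyelitis (EAE), an immune attack on myelin used as a model of multiple sclerosis. Infiltrating cells came from the peak (2 libraries) and the chronic phase (3 libraries). The age, the sex and the number of animals behind a library were not given in the sources used here. The study compared the resident and infiltrating cells between disease stages. A level below is the count of a gene summed over all cells of 1 annotated class in 1 library, per 1000000 UMIs of that sum (CPM), and a letter after a group is only the name of a library.

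Microglia arise from yolk sac precursors and keep their state through transcription factors that answer to signals of the nervous system. Spi1 encodes PU.1, an ETS factor that opens enhancers in all myeloid cells, and Mef2a and Mef2c encode MADS-box factors that bind many of the same enhancers in microglia. Sall1 and its relative Sall3 encode zinc finger repressors. Among mononuclear phagocytes Sall1 is known for being made by microglia and not by blood-derived macrophages, and its loss from microglia shifts them to an inflammatory state. Bhlhe41, also called Dec2, is a basic helix-loop-helix repressor that binds the E-box and that tissue macrophages of several organs use. Klf7 is a Krüppel-like zinc finger factor, and Sox4 is an HMG-box factor best known from progenitor cells.

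In GRCm38 (GENCODE vM21), Sall1 lies at chr8:89027235-89044162 on the minus strand, Mef2a at chr7:67231163-67372858 on the minus strand, Mef2c at chr13:83504034-83667080 on the plus strand and Bhlhe41 at chr6:145858243-145865558 on the minus strand. Klf7 lies at chr1:64029447-64122282 on the minus strand, Sox4 at chr13:28948919-28953713 on the minus strand and Spi1 at chr2:91082390-91115756 on the plus strand. All are annotated as protein-coding. Mef2a overlaps the protein-coding gene Lysmd4 on the opposite strand, and Klf7, Sox4 and Bhlhe41 each overlap a gene model on the opposite strand that is not annotated as protein-coding. The sources used here do not say whether counting used strand, so reads from such pairs may not have been told apart.

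Stretches before the start sites of Sall1, Mef2a, Sox4 and Bhlhe41 are printed because each bears on a difference described below: that between resident and infiltrating cells (Sall1), lower levels in diseased microglia (Sall1, Mef2a, Sox4) and that between stages in infiltrating cells (Bhlhe41). The RefSeq window of Klf7, which also fell, lies inside the GENCODE gene and is not printed. The stretches come from RefSeq (GRCm38.p6), from which windows of 6 of the 8 genes were taken. Each runs 5′ to 3′ on the gene's own strand and ends at the last base before the GENCODE gene, and capitals mark the letters of 5 motifs found on either strand: the PU-box GAGGAA, the E-box CACGTG, the SOX core AACAAAG, the KLF core CACCC and MEF2, by its name. These letters stood in 23.3%, 6.02%, 5.03%, 52.0% and 2.92% of all 32851 windows of 250 bases, in that order. The printed stretches of Sox4 (236 bases) and Bhlhe41 (112 bases) are shorter, so these shares do not apply to them as printed.
Sall1 (chr8:89044163-89044412, minus): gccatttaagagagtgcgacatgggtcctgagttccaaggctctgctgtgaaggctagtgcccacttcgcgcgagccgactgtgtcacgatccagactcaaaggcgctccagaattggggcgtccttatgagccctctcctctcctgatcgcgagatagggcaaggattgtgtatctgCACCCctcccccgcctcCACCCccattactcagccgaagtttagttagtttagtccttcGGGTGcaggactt
Mef2a (chr7:67372859-67373108, minus): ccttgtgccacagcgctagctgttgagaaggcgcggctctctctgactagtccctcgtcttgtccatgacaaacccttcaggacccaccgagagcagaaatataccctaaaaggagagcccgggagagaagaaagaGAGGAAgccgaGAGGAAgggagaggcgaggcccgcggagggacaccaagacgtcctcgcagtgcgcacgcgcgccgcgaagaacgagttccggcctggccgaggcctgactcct
Sox4 (chr13:28953714-28953949, minus): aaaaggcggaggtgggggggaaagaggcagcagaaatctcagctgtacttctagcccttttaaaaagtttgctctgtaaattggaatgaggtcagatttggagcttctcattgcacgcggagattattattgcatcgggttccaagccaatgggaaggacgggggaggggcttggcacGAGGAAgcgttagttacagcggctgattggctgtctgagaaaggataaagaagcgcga
Bhlhe41 (chr6:145865559-145865670, minus): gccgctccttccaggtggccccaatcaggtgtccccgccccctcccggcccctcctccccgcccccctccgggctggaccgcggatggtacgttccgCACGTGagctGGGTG
The PU-box letters stood in the stretches of Mef2a and Sox4, and the E-box, the site that Bhlhe41 itself is known to bind, stood in that of Bhlhe41. A match is a description of the letters and no sign that a factor binds there.

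The 13 libraries held 22148 cells and 116091839 UMIs, of which 17670 cells were annotated as microglia, 1925 as macrophages and 1572 as monocytes. Microglial sums of the resident libraries ran from 4196375 to 17965689 UMIs, and macrophage sums of the infiltrating libraries from 1548500 to 8469739. The median microglial cell had 8446.5 and 8521 UMIs in the peak libraries, against 3017 to 4476 in the controls and 2465.5 to 3544 in the chronic phase. The libraries fell into 4 sequencing pools, called A to D, and none held both disease stages. Pool C held control b and both peak resident libraries, pool B held control c and chronic resident c, while chronic resident a and b came from pool D, which had no control. Of the cell barcodes, 55 occurred in 2 or more libraries. Microglia and infiltrating macrophages carried their markers: all 9 microglial markers were found in each microglial sum, at 24913 to 30985 CPM together in controls, 8647 to 9367 at the peak and 13817 to 14632 in the chronic phase, against 679 to 2437 in infiltrating macrophages. Of 10 monocyte markers all were found in infiltrating monocytes, at 10284 to 14391 CPM together at the peak and 3836 to 8627 in the chronic phase. Infiltrating macrophages held 9 or 10 of them, at 4203 to 7990 and 335 to 3669 CPM. They lay below monocytes of the same stage but overlapped them across stages. Within the microglia, the summed level of 8 macrophage markers (Ms4a7, Arg1, Gpnmb, Mrc1, Apoe, Fabp5, Lgals3 and Vim) was 1300 to 1588 CPM in controls, 11734 to 13162 at the peak and 28740 to 39363 in the chronic phase, against 30016 to 84077 in infiltrating macrophages. Chronic microglia thus overlapped infiltrating macrophages in these markers. The macrophages of the peak resident libraries had 11633 to 19189 CPM of the same markers, overlapping peak microglia, so their markers do not set that class apart. The summed level of 10 monocyte markers was 15.2 to 33.1, 112 to 194 and 103 to 310 CPM in the same order. Peak microglia also had median mitochondrial shares of 2.629% and 2.269%, against 1.083% to 1.463% in controls and 0.966% to 1.474% in the chronic phase, and 288 to 304 CPM of summed proliferation markers, against 66.1 to 110 and 68.5 to 146. The part of these shifts and of the depth in the results below was not tested except where a value is given.

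In microglia of the resident libraries, Sox4 and Klf7 fell at the peak, and Sall1, Mef2a, Klf7 and Sox4 fell in the chronic phase. Between the stages, Sox4 and Bhlhe41 were higher in the chronic phase. Thus 2 of the 8 genes were called lower at the peak, beside 9.59% of the 11460 genes tested (21.8% in either direction), and 0 were called higher, beside 12.2%. In the chronic phase 4 of the 8 were called lower than in controls, beside 6.64% of genes (18% in either direction), and 0 were called higher, beside 11.4%. From peak to chronic phase 2 of the 8 were called higher, beside 4.77% of genes (9.94% in either direction), and 0 lower, beside 5.17%. A call means an adjusted p under 0.05 in edgeR's quasi-likelihood test on library sums, with Benjamini-Hochberg adjustment across every gene in the fit, and a fold is given after TMM scaling with its standard error (SE). TMM sets the median gene near 0. On CPM by library totals alone, the median of all genes was -0.32 at the peak and -0.49 in the chronic phase on the log2 scale, so CPM values fall by more than the folds say. Under that scaling the calls at the peak were 930 higher and 2119 lower, against 1403 and 1099 with TMM, and those in the chronic phase were 747 and 3426, against 1303 and 761.

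Sall1 stood at 218, 367 and 217 CPM in microglia of the controls a to c. It stood at 163 and 97.1 CPM in the peak libraries and at 46.5, 52.9 and 92.3 CPM in the chronic libraries. The 3 groups did not overlap, and they stood in the order control, peak, chronic. The fall to the chronic phase was called (log2 fold change -1.58 ± 0.35, edgeR adjusted p = 0.00682). The difference at the peak was not (-0.71 ± 0.39, edgeR adjusted p = 0.21), nor was that between the stages (-0.87 ± 0.38, edgeR adjusted p = 0.14). With the sequencing pool as a term, the peak difference was called (-1.11, edgeR adjusted p = 0.0404) and the chronic fall was not (-0.96, edgeR adjusted p = 0.304). Within pool C the peak libraries lay below the 367 CPM of control b, and within pool B chronic c, at 92.3 CPM, lay below the 217 CPM of control c.

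Sall3, the relative of Sall1, stood at 115, 177 and 105 CPM in controls, 106 and 65.5 CPM at the peak, and 74.0, 75.1 and 48.8 CPM in the chronic phase. Its chronic levels lay below every control, while peak a lay between controls c and a. Neither disease stage differed from controls beyond the spread between libraries (-0.30 ± 0.45, edgeR adjusted p = 0.685 at the peak, and -0.49 ± 0.40, edgeR adjusted p = 0.403 in the chronic phase).

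Mef2a, a MEF2 family member also made in muscle and neurons, stood at 689, 964 and 795 CPM in controls. At the peak it stood at 547 and 301 CPM, and in the chronic phase at 235, 270 and 437 CPM. Every diseased library lay below every control, and the diseased stages overlapped. The chronic fall was called (-0.91 ± 0.29, edgeR adjusted p = 0.0431) close to the threshold. It was not called in 5 of the 6 fits that left out 1 library, the exception being the one without chronic resident c (edgeR adjusted p from 0.0742 to 0.195 in the 5), nor with the pool as a term (-0.55, edgeR adjusted p = 0.494). The peak difference was not called (-0.63 ± 0.33, edgeR adjusted p = 0.185) and became so with the pool as a term (-0.86, edgeR adjusted p = 0.0356).

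Mef2c, a MEF2 factor known for restraining microglial activation, stood at 1135, 1108 and 1207 CPM in controls, 505 and 355 CPM at the peak and 526, 518 and 667 CPM in the chronic phase. Controls were tight and lay above all diseased libraries. Even so, neither difference was called in the fit that also held the macrophages (-1.10 ± 0.58, edgeR adjusted p = 0.195 at the peak, and -0.54 ± 0.50, edgeR adjusted p = 0.469 in the chronic phase). With the pool as a term, fitted over microglia and macrophages together, the chronic difference changed sign (0.18, edgeR adjusted p = 0.979). Within pool B, however, chronic c, at 667 CPM, lay below the 1207 CPM of control c. Within pool C both peak libraries lay below the 1108 CPM of control b. Fitted over the 8 resident libraries alone, the peak fall was called (-1.12 ± 0.24, edgeR adjusted p = 0.00409).

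Bhlhe41 followed another course. It stood at 344, 339 and 392 CPM in controls, 161 and 157 CPM at the peak, and 416, 392 and 239 CPM in the chronic phase. The peak libraries lay below all others, and chronic libraries a and b lay at or above the controls. The higher chronic level against the peak was called (1.31 ± 0.33, edgeR adjusted p = 0.0293). This call was lost in 4 of the 5 fits that left out 1 of the peak or chronic libraries, all but the one without chronic resident c (edgeR adjusted p from 0.0819 to 0.224), and among cells of 3000 to 10000 UMIs (1.25, edgeR adjusted p = 0.0621). The peak difference from controls was not called (-0.84 ± 0.32, edgeR adjusted p = 0.0766), though it was with DESeq2 (DESeq2 adjusted p = 0.0377) and in the resident libraries alone (edgeR adjusted p = 0.0482). The chronic difference from controls was 0.46 ± 0.28 (edgeR adjusted p = 0.258) with TMM and -0.04 with library totals.

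Klf7 stood at 99.6, 140 and 95.4 CPM in controls, 50.8 and 32.5 CPM at the peak and 15.1, 15.4 and 28.2 CPM in the chronic phase. The 3 groups did not overlap. Klf7 was the only 1 of the 8 genes called lower in both stages that also stayed called in the chronic phase with the pool as a term (-2.02 ± 0.27, edgeR adjusted p = 0.000207, and -1.45, edgeR adjusted p = 0.00673 with the pool). At the peak the fall was 1.10 ± 0.30 on the log2 scale (edgeR adjusted p = 0.0179), and it was not called without peak resident a (edgeR adjusted p = 0.0515) or b (edgeR adjusted p = 0.176). Between the stages the difference was -0.92 ± 0.29 (edgeR adjusted p = 0.0567), and it was called without chronic resident c (-1.19, edgeR adjusted p = 0.0329).

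Sox4 stood at 351, 259 and 268 CPM in controls and at 12.9 and 5.21 CPM in the peak libraries, from 54 and 33 UMIs. In the chronic phase it stood at 28.7, 40.1 and 81.8 CPM. The groups did not overlap, and the chronic libraries lay between the peak and the controls. Sox4 fell by 4.75 ± 0.62 on the log2 scale at the peak (edgeR adjusted p = 0.000159) and by 2.09 ± 0.45 in the chronic phase (edgeR adjusted p = 0.00598), and stood 2.66 ± 0.57 higher in the chronic phase than at the peak (edgeR adjusted p = 0.0167). Among cells of 3000 to 10000 UMIs, whose median depth was 7350 and 6790 UMIs in the peak libraries and still lower, at 3561 to 4546, in the controls, the peak fall was 4.71 on the log2 scale (edgeR adjusted p = 0.00027). The chronic fall was not called with the pool as a term (-1.25, edgeR adjusted p = 0.153). The difference between stages was not called without peak resident a (3.27, edgeR adjusted p = 0.0914) or b (2.20, edgeR adjusted p = 0.118).

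Spi1 stood at 526, 401 and 416 CPM in controls, 266 and 351 CPM at the peak and 327, 298 and 337 CPM in the chronic phase. All diseased libraries lay below the controls in CPM, yet after TMM scaling the folds were -0.19 ± 0.30 (edgeR adjusted p = 0.696) at the peak and 0.00 ± 0.27 (edgeR adjusted p = 0.999) in the chronic phase. Of 12 genes known to be driven by PU.1, 2 were called higher and 1 lower at the peak, beside 12.2% and 9.59% of all genes tested (median log2 fold change 0.04, against 0.00 over all genes tested). In the chronic phase 4 were called higher and 1 lower, beside 11.4% and 6.64% (median 0.18, against -0.02). Csf2ra, a receptor chain for GM-CSF, rose at the peak (1.39 ± 0.32, edgeR adjusted p = 0.0064) and in the chronic phase (1.60 ± 0.29, edgeR adjusted p = 0.00215). Csf1r, the receptor that keeps microglia alive, fell by 0.89 ± 0.30 on the log2 scale at the peak (edgeR adjusted p = 0.0462) and by 0.79 ± 0.26 in the chronic phase (edgeR adjusted p = 0.0498).

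**Figure D1:**
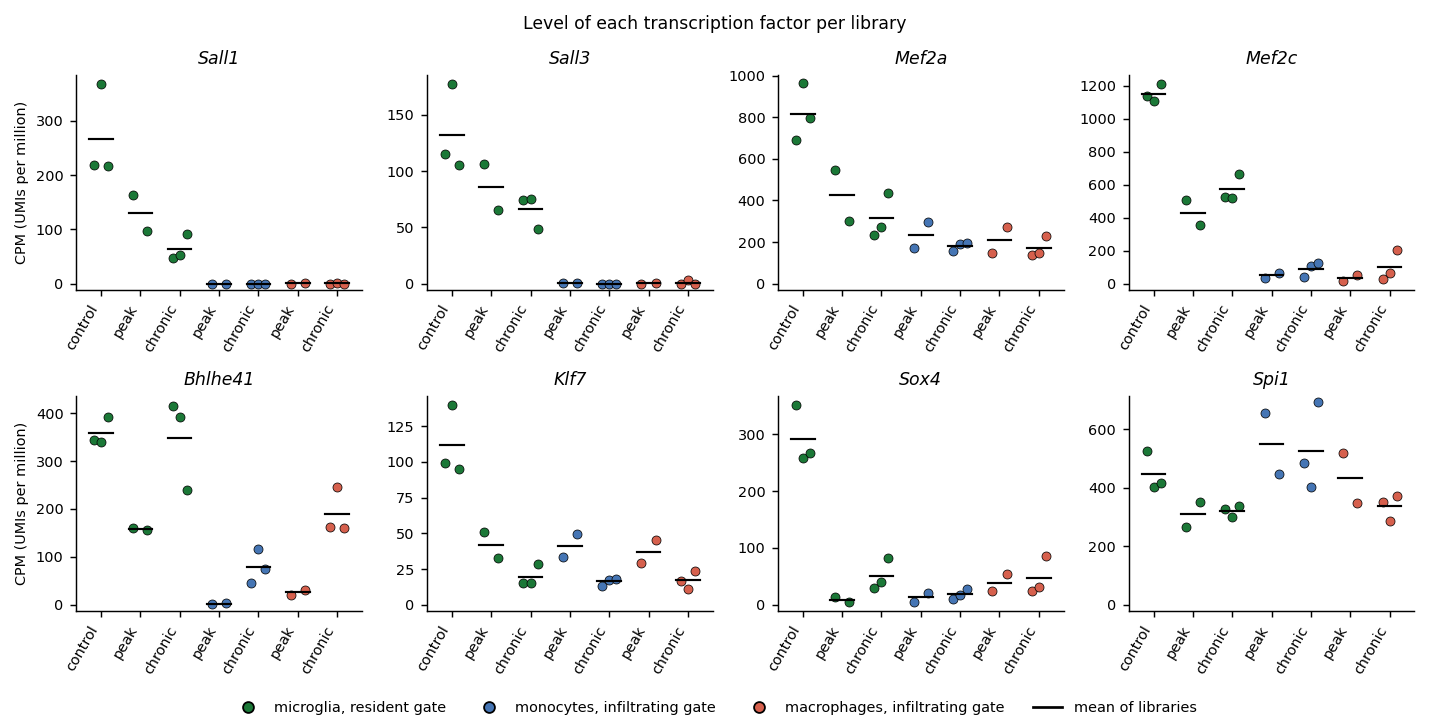
Each panel plots the level of a gene in CPM (linear axis) for each library, with microglia of the resident gate, monocytes and macrophages of the infiltrating gate and disease stage on the horizontal axis, and bars for the mean of the libraries. Sall1 and Sall3 lie near 0 in monocytes and macrophages of the infiltrating gate, and Sox4 lies at 12.9 and 5.21 CPM in the peak microglia. Bhlhe41 is lower at the peak than in the chronic phase in all 3 classes.

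**Figure D2:**
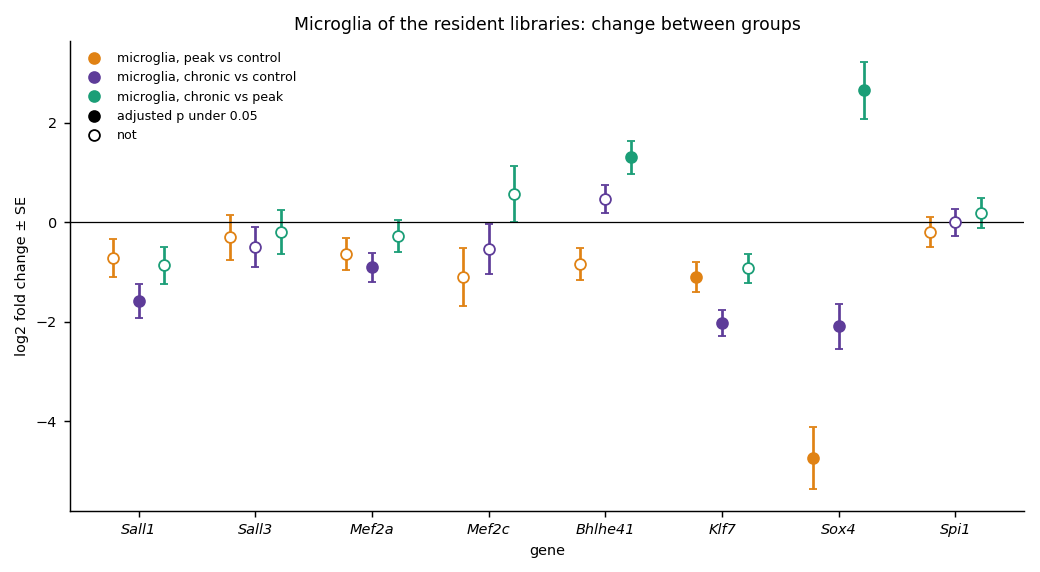
Points give the log2 fold change of each gene between groups of microglia, bars the standard error, and filled points an edgeR adjusted p under 0.05. Filled points below 0 are Klf7 and Sox4 at the peak and Sall1, Mef2a, Klf7 and Sox4 in the chronic phase.

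Other factors of the microglial network were described from lists chosen with earlier results of these data known. The counts below stand beside 12.2% of all genes called higher and 9.59% called lower at the peak, and 11.4% and 6.64% in the chronic phase. Of 20 further transcription factors of microglia, 1 was called higher and 3 lower at the peak (median -0.37, against 0.00 over all genes), and 1 higher and 6 lower in the chronic phase (median -0.70, against -0.02). The ETS factor Etv1 fell at both stages (by 1.38 ± 0.28 at the peak, edgeR adjusted p = 0.00293, and by 1.16 ± 0.23 in the chronic phase, edgeR adjusted p = 0.00395, on the log2 scale). Smad3, which carries TGF-beta signals that microglia depend on, fell by 1.38 ± 0.36 in the chronic phase (edgeR adjusted p = 0.018), as did Hhex by 1.05 ± 0.27 (edgeR adjusted p = 0.0159). Tgif1, a repressor of TGF-beta targets, was the member that rose at both stages (1.11 ± 0.22, edgeR adjusted p = 0.00311 at the peak, and 0.94 ± 0.20, edgeR adjusted p = 0.00613 in the chronic phase).

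Among 19 relatives of the 8 genes, 14 passed the filter on low counts. Of these, 1 was called higher and 3 lower at the peak, and 1 higher and 4 lower in the chronic phase (medians -0.32 and -0.39), beside the same shares of all genes. The member that rose was Bhlhe40, the paralog of Bhlhe41, by 2.86 ± 0.48 at the peak (edgeR adjusted p = 0.00102) and by 4.61 ± 0.45 in the chronic phase (edgeR adjusted p = 1.95e-05). Sall2 fell by 3.34 ± 0.55 on the log2 scale at the peak (edgeR adjusted p = 0.000855) and by 1.68 ± 0.38 in the chronic phase (edgeR adjusted p = 0.00854). Ets1, an ETS factor best known from lymphocytes, fell by 2.88 ± 0.45 at the peak (edgeR adjusted p = 0.000642) and by 1.39 ± 0.35 in the chronic phase (edgeR adjusted p = 0.0153).

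Of 20 transcription factors of inflammatory or tissue macrophages, 19 were tested. At the peak 3 were called higher and 3 lower (median 0.26, against 0.00), near the shares of all genes called (12.2% and 9.59%), and in the chronic phase 6 higher and 1 lower (median 1.22, against -0.02 over all genes), beside 11.4% and 6.64%. Ahr, the aryl hydrocarbon receptor, rose by 4.68 ± 0.65 at the peak (edgeR adjusted p = 0.000227), Atf3, a stress factor, by 2.44 ± 0.26 in the chronic phase (edgeR adjusted p = 3.8e-05), and Id2 by 2.12 ± 0.31 (edgeR adjusted p = 0.000394) and 1.43 ± 0.29 (edgeR adjusted p = 0.00391) at the stages in turn. Of 16 signature genes of microglia, 0 were called higher and 9 lower at the peak (median -1.44), and 0 higher and 6 lower in the chronic phase (median -1.07). P2ry12, the purinergic receptor of resting microglia, fell by 3.14 ± 0.50 (edgeR adjusted p = 0.000642) and by 1.68 ± 0.40 (edgeR adjusted p = 0.0103) on the log2 scale.

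The authors' clusters split the microglia by stage. Cluster 9 held 87.8% to 94.6% of the microglia of a control library, cluster 3 held 68.9% and 56.4% in the peak libraries, and clusters 1, 3 and 4 held most of the chronic microglia. Because these clusters were made from the same counts, levels by cluster are given with no test. Sall1 stood at 228, 390 and 226 CPM in cluster 9 of the controls, against 104 to 137 CPM in cluster 1, 66.9 to 111 CPM in cluster 3 and 24.4 to 28.5 CPM in cluster 4 of the chronic libraries. At the peak it stood at 181 and 123 CPM in cluster 3, and at 60.2 and 35.4 CPM in cluster 4. Sall1 was thus lowest in cluster 4 among clusters 1, 3 and 4 of the chronic libraries and lower in cluster 4 than in cluster 3 at the peak, where cluster 1 held under 20 cells in each library. Chronic cluster 2 was as low, at 19.8 to 29.2 CPM in chronic a and b, from 12 UMIs, and held under 20 cells in chronic c. At the peak cluster 2 stood at 61.0 to 156 CPM. Chronic cluster 4 was 55.1%, 46.3% and 27.6% of the microglia of chronic resident a to c, and chronic c, with the smallest share, had the highest Sall1. Chronic c was also the chronic resident library of pool B, so cluster share, pool and library cannot be told apart here.

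Several of the other genes differed between clusters of the same stage. Mef2a stood at 438 to 565 CPM in cluster 1 and at 158 to 258 CPM in cluster 4 of the chronic libraries, and Mef2c at 788 to 848 and 342 to 487 CPM. Klf7 stood at 27.1 to 37.2 CPM in chronic cluster 1 and at 7.1 to 15.5 CPM in chronic cluster 4. Cluster 2 of chronic a and b was low too, at 132 to 190 CPM of Mef2a and 317 to 512 CPM of Mef2c. Klf7 stood there at 6.6 to 9.74 CPM, from 4 UMIs. Within cluster 3 Klf7 also differed by stage, at 103 and 135 CPM in controls b and c, 60 and 40.7 CPM at the peak and 23.6 to 32.8 CPM in the chronic phase. Sall3 stood at 61.6 to 165 CPM in cluster 1 and 29.9 to 52.2 CPM in cluster 4 of the chronic libraries. Spi1 stood at 332 to 356 CPM and 276 to 311 CPM in the same clusters. Sox4 differed by stage within a cluster: in cluster 3 it stood at 98 and 153 CPM in controls b and c, at 11.9 and 5.85 CPM at the peak, and at 25.6, 49.3 and 77.7 CPM in the chronic phase. Bhlhe41 too was low at the peak within a cluster, at 175 and 174 CPM in cluster 3, where controls b and c had 382 and 355 CPM and chronic a to c had 462, 416 and 220 CPM. The lower Bhlhe41 of chronic c was found in each of clusters 1, 3 and 4, at 224, 220 and 264 CPM against 344 to 538 CPM in chronic a and b. Chronic c is the chronic resident library of pool B, and a and b are those of pool D, so pool and library cannot be told apart here.

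**Figure D3:**
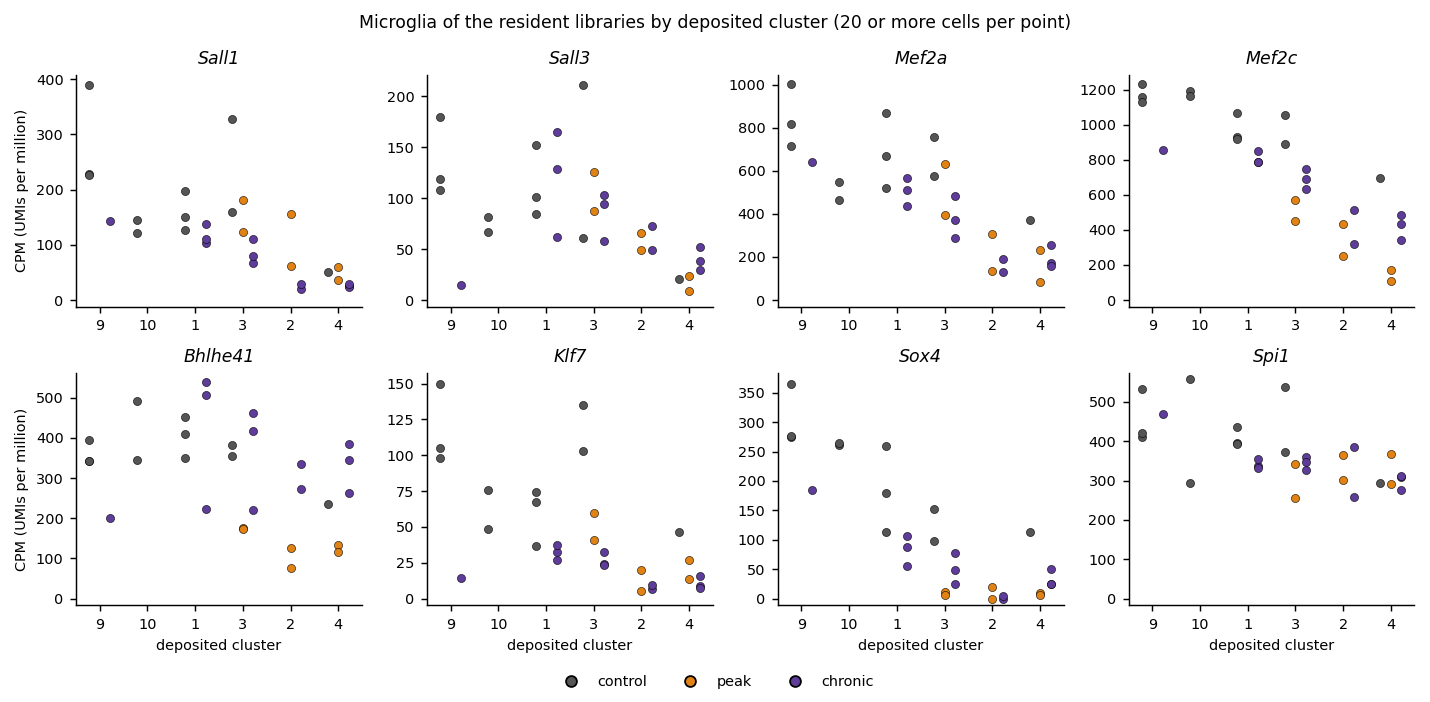
Each point is the level in CPM (linear axis) of a gene in the microglia of 1 resident library within 1 deposited cluster of 20 or more cells, colored by disease stage. Sall1, Mef2a, Mef2c and Klf7 are low in cluster 4 at both disease stages and in cluster 2 of the chronic phase. Sox4 lies between 0 and 19.1 CPM at the peak in clusters 3, 2 and 4, and Bhlhe41 is lower at the peak than in chronic a and b in clusters 2, 3 and 4.

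Cells annotated as microglia also came through the infiltrating gate in the chronic phase: 11 in library a, 1915 in library b and 74 in library c. They were 1.8%, 81.2% and 13.4% of the cells of these libraries, so library b was mostly microglia. Its macrophage and monocyte sums held 265 and 77 cells. Sall1 stood at 56.4 and 89.4 CPM in b and c, beside 46.5 to 92.3 CPM in chronic resident microglia. Mef2c stood at 577 and 608 CPM, beside 518 to 667 CPM, and Sox4 at 46.6 and 72.3 CPM, beside 28.7 to 81.8 CPM. Other genes reached past the resident range: Bhlhe41 at 429 and 187 CPM, beside 239 to 416 CPM, Sall3 at 84.7 and 21.3 CPM, beside 48.8 to 75.1 CPM, and Klf7 at 19.2 and 8.51 CPM, beside 15.1 to 28.2 CPM. In library c, whose 74 cells gave 235026 UMIs, 8.51 CPM of Klf7 are 2 UMIs. As in the resident gate, the library of pool B had the higher Sall1 and Sox4 and the lower Bhlhe41. No test was made between the gates.

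In infiltrating macrophages, Sall1, Sall3 and Mef2c stood below microglia at both stages, Bhlhe41 was lower at the peak, and Sox4 was higher at the peak. At the peak 4 of the 8 genes were called lower in macrophages, beside 14.4% of genes tested (26.4% in either direction), and 1 was called higher, beside 12%. In the chronic phase 3 of the 8 were called lower, beside 12.6% (23.3% in either direction), and 0 were called higher, beside 10.7%. Sall1 and Sall3 are among those called lower at both stages, but they passed the filter on low counts only through microglia. Their calls were set by that filter and add nothing to these counts. The other genes called lower were Mef2c at both stages and Bhlhe41 at the peak. On library totals alone the calls were 931 higher and 2284 lower at the peak, against 1380 and 1648 with TMM, and 837 and 2228 in the chronic phase, against 1223 and 1445.

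Sall1 gave 1 UMI in each of the peak macrophage sums, 2 in 10670889 UMIs from 866 cells, while the peak microglia gave 1298 in 10528490. The ratio of the pooled levels was 658, with a 95% interval of 182 to 5437 that covers counting error only. In the chronic phase the macrophages gave 4 UMIs of Sall1 in 8175951, all in library b, against 2315 in 31208382 for microglia (ratio 152, 59.1 to 557). Sall3 gave 1 UMI at the peak (ratio 872, 156 to 34467) and 8 in the chronic phase, all in library b (ratio 61.0, 30.9 to 142). Both genes passed the filter on low counts only through microglia, so the calls against macrophages were set by that filter and are not given as support. Monocytes gave 1 UMI of Sall1 and 3 of Sall3 at the peak, in 13778717, and 0 of either in the chronic phase, in 2635021. The 3 UMIs that a count of 0 allows make Sall1 at least 65.2-fold and Sall3 at least 52.4-fold lower in chronic monocytes than in chronic microglia, and the 2-sided exact limits at 95% are 52.9-fold and 42.6-fold.

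Mef2c stood at 16.3 and 55.0 CPM in peak macrophages and at 28.2, 66.5 and 205 CPM in chronic macrophages, below every microglial library. It was lower than in microglia at the peak (-3.36 ± 0.68, edgeR adjusted p = 0.00261) and in the chronic phase (-2.28 ± 0.53, edgeR adjusted p = 0.00657). Mef2a stood at 146 and 270 CPM in peak and at 138, 145 and 228 CPM in chronic macrophages, and its difference from microglia was not called at either stage (-0.72 ± 0.35, edgeR adjusted p = 0.147, and -0.60 ± 0.29, edgeR adjusted p = 0.151). Sox4 stood at 23.7 and 54.1 CPM in peak macrophages, above both peak microglial libraries (2.41 ± 0.60, edgeR adjusted p = 0.00908). That call was lost without peak resident b (1.95, edgeR adjusted p = 0.0849). In the chronic phase Sox4 stood at 25.0, 30.4 and 85.2 CPM in macrophages and overlapped microglia (0.15 ± 0.45, edgeR adjusted p = 0.846). Klf7 and Spi1 were not called in either stage (edgeR adjusted p from 0.0787 to 0.898), although Spi1 was called higher at the peak without peak infiltrating b (1.18, edgeR adjusted p = 0.0226) and with DESeq2 (0.85, DESeq2 adjusted p = 0.031). Spi1 stood at 348 to 518 CPM at the peak and 286 to 371 CPM in the chronic phase.

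Bhlhe41 separated the stages within the infiltrating cells. It stood at 20.7 and 30.9 CPM in peak macrophages and at 163, 246 and 161 CPM in chronic macrophages, with no overlap. The difference was 3.03 ± 0.36 on the log2 scale (edgeR adjusted p = 0.00825), and Bhlhe41 was the only 1 of the 8 genes called higher, beside 0.096% of genes tested (0.131% in either direction), with 0 lower, beside 0.0349%. In monocytes it stood at 1.44 and 3.51 CPM at the peak, from 17 and 7 UMIs, and at 44.4, 116 and 75.6 CPM in the chronic phase (5.28 ± 0.59, edgeR adjusted p = 0.00611). There it was the only 1 of the 6 genes tested that was called higher, beside 0.0758% of genes (0.101% in either direction), with 0 lower, beside 0.0253%, since Sall1 and Sall3 did not pass the filter on low counts. Neither call held without peak infiltrating a (2.87, edgeR adjusted p = 0.0819 in macrophages, and 4.58, edgeR adjusted p = 0.315 in monocytes). No pool held both stages, so stage and pool cannot be told apart for these differences. The highest chronic levels, 246 and 116 CPM, were those of library b, of whose cells 81.2% were annotated as microglia. The part of background RNA in these levels was not tested. Against microglia, peak macrophages were lower in Bhlhe41 (-2.34 ± 0.37, edgeR adjusted p = 0.000413). Chronic macrophages were not called (-0.61 ± 0.28, edgeR adjusted p = 0.135), except without chronic resident c (-0.86, edgeR adjusted p = 0.0412). The change of that gap between the stages was 1.73 ± 0.46 (edgeR adjusted p = 0.359), and for Sox4 it was -2.26 ± 0.74 (edgeR adjusted p = 0.501). For the gap 0 of the 8 genes were called, beside 0.0262% of genes tested. At an unadjusted p under 0.05 there were 770 of 11460 genes, and DESeq2 called 33 in all.

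Mef2c in macrophages differed between stages by 1.65 ± 0.61 (edgeR adjusted p = 0.267), which was called without chronic infiltrating a (2.10, edgeR adjusted p = 0.0412), and Klf7 by -1.0 ± 0.31 (edgeR adjusted p = 0.205). Klf7 stood at 29.3 and 45.0 CPM in peak macrophages and at 16.6, 11.3 and 23.9 CPM in chronic ones. In monocytes it stood at 33.6 and 49.2 CPM at the peak and at 13.3, 17.5 and 18.2 CPM in the chronic phase (-1.27 ± 0.38, edgeR adjusted p = 0.328). The chronic levels of Klf7 lay below the peak levels in all 3 classes, without a call between the stages.

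Macrophages and monocytes of the same infiltrating libraries were compared with the library as a term. Within a library these classes differ only by the authors' annotation of the cells. The p-values describe the annotated classes and are no independent support for a difference. Of the 6 genes tested, 2 were called higher in macrophages, beside 9.81% of genes tested (20.2% in either direction), and 1 lower, beside 10.4%. On library totals alone 646 genes were called higher and 1213 lower, against 820 and 865 with TMM. Bhlhe41 was higher in macrophages in all 5 libraries (1.96 ± 0.28, edgeR adjusted p = 0.000568), as was Sox4, which stood at 5.18 and 20.6 CPM in peak and 9.63, 17.5 and 28.0 CPM in chronic monocytes (1.72 ± 0.17, edgeR adjusted p = 3.88e-05). Spi1 stood at 656 and 445 CPM in peak and at 483, 403 and 693 CPM in chronic monocytes and was lower in macrophages of all 5 libraries (-0.44 ± 0.10, edgeR adjusted p = 0.00758). Mef2c was called lower in macrophages only without chronic infiltrating c (-0.59, edgeR adjusted p = 0.0072). Without the library as a term, so without the pairing, 0 of the 3 were called (1.57, 1.61 and -0.46, edgeR adjusted p from 0.201 to 0.747).

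The resident gate held cells annotated as macrophages too: 30 and 20 in the peak libraries and 68, 58 and 52 in the chronic libraries. In the chronic libraries Sall1 stood at 7.46, 4.88 and 13.3 CPM and Sall3 at 12.4, 35.8 and 7.6 CPM in them. Both were below microglia of the same libraries (-2.63 ± 0.27, edgeR adjusted p = 1.09e-06, and -1.64 ± 0.27, edgeR adjusted p = 0.000274), as were Mef2c (-1.29 ± 0.16, edgeR adjusted p = 1.17e-05) and Mef2a (-0.68 ± 0.14, edgeR adjusted p = 0.00187), with the library as a term. Within a library of this gate, macrophages and microglia differ only by the authors' annotation of the cells. These p-values thus describe the annotated classes and are no independent support for a difference. The macrophage levels of Sall1 rest on 6, 3 and 7 UMIs. T cells of the chronic resident libraries, pooled, had 1.14 CPM of Sall1 (exact Poisson interval 0.0289 to 6.36, counting error only). They had 10.3 CPM of Sall3 (4.7 to 19.5), an interval that holds the macrophage levels of 12.4 and 7.6 CPM. The part of background RNA in the macrophage levels was not tested. These 4 of 8 genes stand beside 8.32% of genes tested that were called lower (19.3% in either direction), and 0 were called higher, beside 11%. On library totals alone 621 genes were called higher and 1660 lower, against 1072 and 812 with TMM. Without the library as a term Sall3 (edgeR adjusted p = 0.0855) and Mef2a (edgeR adjusted p = 0.317) were not called, and Mef2a was not called without chronic resident b (-0.58, edgeR adjusted p = 0.103).

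These resident macrophages were not of 1 kind in the authors' own clusters. Cluster 6 held 87.9% to 100% of the macrophages of an infiltrating library, but 58.8%, 36.2% and 46.2% of those in chronic resident a to c, and the rest lay mostly in the microglial clusters 3 and 4. Cluster 6 macrophages of the chronic resident libraries gave 2 UMIs of Sall1 in 85 cells, and those of the chronic infiltrating libraries gave 0 in 778 cells. Annotated macrophages of clusters 3 and 4 stood at 14.5, 8.63 and 18.5 CPM of Sall1 and at 344, 351 and 340 CPM of Mef2c in chronic resident a to c. In cluster 6 of the same libraries Mef2c stood at 47.4, 56.2 and 137 CPM. Bhlhe41 differed less between them, at 291, 388 and 237 CPM in clusters 3 and 4 and at 244, 206 and 249 CPM in cluster 6. The 4 UMIs of Sall1 among chronic infiltrating macrophages, all in library b, lay in its 27 annotated macrophages of cluster 4.

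At the peak, 27 of 30 and 15 of 20 annotated macrophages of resident a and b lay in clusters 3 and 4. They stood at 176 and 73.0 CPM of Sall1, 133 and 73.0 CPM of Sall3 and 631 and 423 CPM of Mef2c, beside 163 and 97.1, 106 and 65.5, and 505 and 355 CPM in peak microglia of the same libraries. Their summed microglial markers, over all annotated macrophages, reached 6982 and 7131 CPM, against 8647 to 9367 CPM in peak microglia. Only 2 and 3 cells of these libraries lay in cluster 6, too few for a level.

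**Figure D4:**
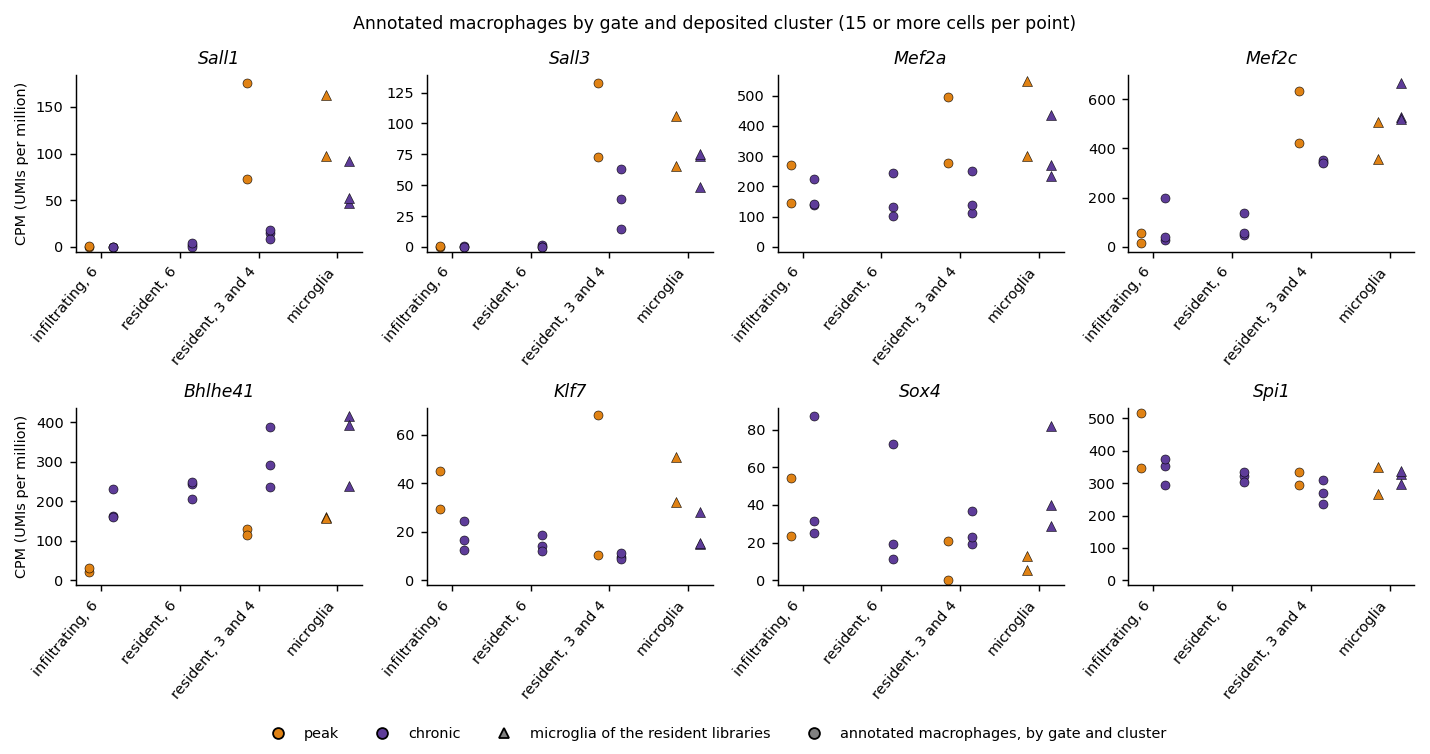
Points give the level in CPM (linear axis) of each gene in annotated macrophages, split by sorting gate and deposited cluster (15 or more cells per point), and triangles give microglia of the resident libraries, colored by disease stage. Sall1 and Sall3 lie near 0 in cluster 6 of both gates, and Mef2c of the resident macrophages in clusters 3 and 4 lies between 340 and 631 CPM, against 16.3 to 198 CPM in cluster 6.

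The share of cells with a UMI gave the same order once each cell was thinned to 800 UMIs, which left out 0 cells. Sall1 was found in an expected 18.8% ± 5.28 (SD, n = 3) of control microglia, 8.92% ± 3.37 (n = 2) of peak microglia and 5.55% ± 2.08 (n = 3) of chronic microglia. Unthinned, the ranges were 47.1% to 75.5%, 44.2% to 60.9% and 13.1% to 29.2%. In T cells, which should lack Sall1, the thinned share was 0.041% in the chronic resident libraries and 0.038% to 0.113% in the infiltrating ones, and it was 0% to 0.15% in infiltrating macrophages. The T cell shares are read as background. The 0.15% was that of chronic infiltrating b, whose 4 UMIs of Sall1 lay in its 27 annotated macrophages of cluster 4, with 0 in its 233 of cluster 6. For Sall3 the thinned share was 1.09% in T cells of the chronic resident libraries, beside 0.553% to 3.61% in annotated macrophages of those libraries. The median depth was 3109.5 to 7188.5 UMIs in T cells and 6552 to 12285.5 UMIs in infiltrating macrophages before thinning. Sox4 was found in 19.7% ± 2.93 of control, 0.66% ± 0.354 of peak and 4.25% ± 2.11 of chronic microglia, thinned. Bhlhe41 was found in 1.62% ± 0.70 (n = 2) of peak and 12.2% ± 3.19 (n = 3) of chronic infiltrating macrophages, thinned, in 0% of T cells of the infiltrating libraries and in 1.94% of T cells of the chronic resident libraries.

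Over all libraries, the other annotated classes had less Sall1 than the 137 CPM of microglia. Dendritic cells gave 0 UMIs in 3245868 from 355 cells, T cells 4 in 3167241 from 574 cells, and the 38 cells annotated as CAMs (central nervous system associated macrophages) gave 5 in 299784, or 16.7 CPM (exact Poisson interval 5.42 to 38.9, counting error only). All 5 came from the 18 CAMs of the control resident libraries, at 38.2 CPM (12.4 to 89.1). The 14 neutrophils gave 1 UMI of Sall1 in 151637. All CAMs together had 427 CPM of Mef2c (356 to 508) and 207 CPM of Bhlhe41 (159 to 265). Dendritic cells had 525 CPM of Spi1 (501 to 551) and 3.70 CPM of Bhlhe41 (1.91 to 6.46), and T cells had 16.1 CPM of Spi1, from 51 UMIs. Intervals of other classes pool libraries and say nothing of the spread between them.

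Ranked over 10 sets of class, gate and stage, Mef2a, Mef2c, Klf7, Sox4 and Sall1 were highest in control microglia, with no overlap with the set next in order. Sall3 and Bhlhe41 were also highest there on average, and overlapped the next set (peak resident macrophages for Sall3, chronic resident microglia for Bhlhe41). Spi1 had its highest mean in peak monocytes (445 and 656 CPM) and its lowest in chronic resident macrophages (285 to 317 CPM), and each set overlapped the next.

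Over 25 sums of microglia, monocytes and macrophages from the 13 libraries, the genes most like Sall1 by Pearson correlation of log2 (CPM + 1) were Bin1 (0.984), Tmem119 (0.970) and Rasal3 (0.968), among 3608 genes compared. Tmem119 is a surface marker of microglia, and Bin1 is a membrane-shaping protein that microglia also make. Among the 8 genes, Sall1 was most like Sall3 (0.964) and Mef2c (0.911) and least like Spi1 (-0.361). Sall3 was most like Sparc (0.969), Mef2a like Rock2 (0.977), Mef2c like Plxdc2 (0.969), Bhlhe41 like Vkorc1 (0.920), Klf7 like Ppp1r12a (0.894), Sox4 like Cebpg (0.853) and Spi1 like Dok3 (0.895). Several sums come from the same library and share its depth and pool, so these correlations are a description.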

How the data were processed

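Single-cell libraries were made from sorted spinal cord cells. The matrix holds raw UMI counts per gene and cell, deposited by the authors with a table of each cell's library, sequencing pool, gate, stage, class and cluster. Cell Ranger 3.1.0, R 4.1.3 and GRCm38 (mm10) are named in the submitters' processing notes. The deposited cell table also gives, per the file headers, the percent of mitochondrial UMIs (5.0% at most) and the log10 of the total UMIs of a cell, both made by the authors. No cell was marked as a doublet there, 0 mitochondrial genes are in the matrix, and no further cell filter or doublet caller was applied.

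Counts were summed per library and annotated class (20 cells or more). Sums were tested with edgeR 4.0.16 (R 4.3.3): filterByExpr by group, TMM scaling, quasi-likelihood F test, adjusted p under 0.05. The main fit took 13 sums, 1 from each library (microglia of resident and macrophages of infiltrating libraries), with 8 residual degrees of freedom. Comparisons of classes within the same libraries had the library as a term, so the sums were paired by library. The classes there are set apart by the authors' annotation alone, so those p-values describe the annotated classes. Class and gate go together in the comparison of infiltrating macrophages with resident microglia, and cannot be told apart there. Each standard error is the fold divided by the root of F. Alternatives were DESeq2 1.42.0, other scalings and filters, other sets of cells and leaving out each library. The range of 3000 to 10000 UMIs and the restriction to cluster 6 were added after seeing the data. Thinned shares are expected values after drawing 800 UMIs per cell, exact intervals are at 95%, and a count of 0 was given a floor of 3 UMIs over the group. Summaries were made in Python 3.11.15 with scipy 1.17.1.

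On simulated counts for the peak against control microglia, 4.6% of genes changed 2-fold, 86.8% of those changed 4-fold and 97.5% of those changed 8-fold were called. The shares were 24.9%, 99% and 99.5% for chronic against control microglia, and 6.7%, 86.7% and 96.4% for chronic against peak macrophages. The simulation gave all genes the same relative spread, and the same mean in all groups apart from a small set of changed genes. The shares are therefore not the power of the tests of single genes above. The labels describe the libraries of a group as biological replicates, and no 2 of them agreed within sampling noise (chi-square per gene 9.2 to 116.27). Where several libraries could share animals, p-values measure only the spread between these libraries. The 8 genes were named whatever their values, and from each gene list up to 4 genes with the smallest p among those called. The genes, lists and tests were chosen with earlier results of these data known. A second count table of the series was not used here.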

Additional observations from a re-analysis of the deposited data

Results flagged for a closer look

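Cells annotated as macrophages in the peak resident libraries, which enter no test above, held UMIs of the 2 SALL genes well above the counts of infiltrating macrophages. Sall1 gave 52 UMIs in the 30 cells of peak resident a and 18 UMIs in the 20 cells of peak resident b, against 1 UMI in each peak infiltrating library. Sall3 gave 38 and 18 UMIs in the same cells, against 0 and 1. Most of these cells lay in the deposited clusters 3 and 4, which also hold microglia, and the difference between the gates was not tested. No group held 4 or more libraries, so single libraries were not screened as outliers.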

How the results depend on the processing

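Of 76 tests of the 8 genes, 25 gave a call. Under the alternatives these calls gave 294 values, of which 267 were still called, 27 were not and 0 changed direction. These numbers include the calls of Sall1 and Sall3 in infiltrating macrophages against microglia, which the filter on low counts set. Counts of called genes moved by over 1.5 times as follows, with the cause not tested. Microglia, chronic against control: 4173 with library totals, 3140 with resident libraries alone and 487 with the pool as a term, against 2064. Microglia, chronic against peak: 2401 with resident libraries alone and 250 among cells of 3000 to 10000 UMIs, against 1139. Macrophages, chronic against peak: 202 with DESeq2, 6 with library totals, 204 with no filter, 91 with monocytes added and 5 in cluster 6 alone, against 15. The gap between macrophages and microglia: 33 with DESeq2, 1 with library totals, 49 with no filter and 5 with monocytes added, against 3. Monocytes, chronic against peak: 56 with DESeq2, 1 with library totals and 205 with no filter, against 8. Without the replicate block, here the library as a term, macrophages against monocytes gave 16 called genes in place of 1685, and macrophages against microglia of the chronic resident libraries gave 535 in place of 1884 (1155 with DESeq2). Mef2c, uncalled between macrophages and monocytes, went from -0.28 to 0.1 without that term.

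Leaving out 1 library at a time gave 1012 to 2278 called genes for microglia at the peak, 925 to 3163 in the chronic phase and 37 to 1021 between the stages. It gave 1239 to 3563 and 1508 to 3119 for macrophages against microglia at the peak and in the chronic phase, 0 to 260 for macrophages between the stages and 0 to 25 for the gap. It gave 897 to 1876 for macrophages against monocytes, 0 to 135 for monocytes between the stages and 918 to 1658 in the chronic resident libraries. The 0 arose without peak infiltrating a in both comparisons between stages and without peak resident b, or chronic resident a, for the gap. Where 1 library was left in a group, it was taken to vary like the other groups.

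Among the values given in the report, those that changed sign were all uncalled. With the pool as a term these were Spi1 (0.14 at the peak, 0.08 in the chronic phase), Mef2c (0.18) and Bhlhe41 (-0.23) in chronic microglia. With library totals they were Bhlhe41 in chronic microglia (-0.04), and macrophages against microglia for Klf7 (-0.18 at the peak, -0.23 in the chronic phase) and Sox4 (-0.15, and -0.12 with monocytes added). Spi1 in chronic microglia was 0.02 among cells of 3000 to 10000 UMIs. With 1 library left out, Spi1 ran from -0.54 to 0.09 at the peak, from -0.14 to 0.16 in the chronic phase and from -0.09 to 0.53 between the stages. Between the stages Sall3 ran from -0.41 to 0.06 and Mef2a from -0.56 to 0.08. For macrophages against microglia Klf7 ran from -0.06 to 0.36 at the peak and from -0.16 to 0.36 in the chronic phase, and Sox4 from -0.53 to 0.61 in the chronic phase.

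No paired analysis was possible because the deposited cell table does not carry the replicate numbers of the labels, apart from the comparisons of classes within 1 library. Depth limits the genes near 0: 0 to 8 UMIs per stage and class carry the levels of Sall1 and Sall3 in infiltrating macrophages and monocytes.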
